A study of Saccharomyces cerevisiae with 56 samples.

Results

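The data are binding scores of yeast that carried the third PDZ domain of the synaptic scaffold protein PSD-95 with substitutions, in a construct with an extension named C in the labels and in a construct with an extension named N. The variants described were those with 1 or 2 missense substitutions, no stop codon and a measured score in both constructs: 41004 variants (1151 single and 39853 double), of 347646 single and double missense entries in the whole deposited table of 384696 entries. The C construct alone had 1157 single and 46053 double missense variants in binding, and the N construct had 1171 and 42787. Both groups were the budding yeast strain BY4742 grown for 5 generations at 30 °C in 400 mL of medium with methotrexate, and each came from 3 input and 3 output libraries that the labels call biological replicates. Of the 56 libraries of the series these are 12, and each construct had 1 further library of the wild type. The series also holds the domain without an extension (PDZ3) and with both (NC), and an abundance assay of each construct. Neither the residues of the extensions nor the binding partner is given in the sources used here. The C and N constructs differ in their extension, not in one extension against none. The mutated block covered 66 residues, from R312 to I377 in the numbering of full-length PSD-95, and residues are named by their wild-type amino acid and number. It ends inside helix 2, so residues beyond I377 were not varied.

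PDZ domains are small folds of a β-sheet sandwich with α-helices that hold the last residues of partner proteins. The partner's end lies as an additional strand in a groove between strand 2 and helix 2, and its terminal carboxylate sits in a loop before strand 2. In longer constructs of this domain an additional helix follows the PDZ fold on its C-terminal side and packs against the sheet, away from the peptide groove. The scores come from a protein-fragment complementation assay, which reads a protein's state through the growth of the yeast that carries it. In the binding version the growth depends on both the amount of the domain and its contact with the partner. In the abundance version it depends on the amount of the domain alone.

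Each variant had 1 score per construct, merged by the authors over the cultures, with its standard error. Scores were put on a scale set within each construct, with 0 for the wild type and -1 for the median of its single nonsense variants. The wild type's growth rate was 0.204 in C and 0.138 in N, and 1 unit of deposited score stood for 0.170 units of growth rate in C and 0.109 in N. The median nonsense variant had a deposited score of -1.10 in C (60 variants) and -1.48 in N (61 variants). The median standard error of a single substitution was 0.0106 in C and 0.0340 in N, in units of the deposited score, and that of a double was 0.0776 in C and 0.227 in N, so that C was the more precise set. The depth behind the scores is unknown. Differences are given as C minus N on the scaled score, ± the standard error propagated from the deposited errors, with a two-sided normal test and Benjamini-Hochberg adjustment at 0.05. These p-values rest on the deposited errors, which cover the spread among the cultures only as far as the authors' errors do. Single nonsense variants from G345 on spread 2.99 times as widely as their errors in C and 2.23 times in N. Of synonymous variants, 33 of 254 lay above the wild type past the threshold in C and 4 below it, against 15 and 3 of 269 in N.

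Most residues tolerated substitutions better in C than in N. The mean scaled score of the 1151 single substitutions was -0.244 ± 0.00348 in C and -0.342 ± 0.00904 in N, a difference of 0.0985 ± 0.00969 that passed the test. A score below -0.5 was reached by 21.5% of single substitutions in C and by 31.6% in N. Against the wild type of their own construct, 778 single substitutions were lower past the threshold in C (67.2%) and 119 higher (10.3%). In N, 798 were lower (68.1%) and 88 higher (7.51%) by the same test. Compared one by one, with p-values adjusted over singles and doubles together, 528 single substitutions were higher in C past the threshold (45.9%) and 106 lower (9.21%). On the deposited growth rate the split was 442 higher and 196 lower. When errors were widened by the nonsense spread it was 296 higher and 31 lower.

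The shift held over all kinds of new residue. Substitutions to proline, which breaks strands and helices, had a mean of -0.511 in C and -0.628 in N (60 variants). Those to charged residues averaged -0.328 in C and -0.412 in N (230 variants). The means were -0.203 in C and -0.295 in N for polar residues (351 variants) and -0.196 in C and -0.303 in N for aliphatic or aromatic residues (459 variants). Substitutions to glycine averaged -0.267 in C and -0.375 in N (51 variants). Each of these differences passed the test, the smallest being 0.0845 for charged residues.

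The order of the residues was largely shared. Across the 1151 single substitutions, Pearson's r between C and N was 0.854 and Spearman's rho was 0.874. Over the means of 61 residues they were 0.891 and 0.903. These are descriptions, since all values of a construct share their libraries and wild type. G329, I327 and H372 had the lowest means in C, and G324, I327 and I359 had the lowest in N. G322, in the carboxylate-binding loop, had the highest mean in both.

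**Figure D1:**
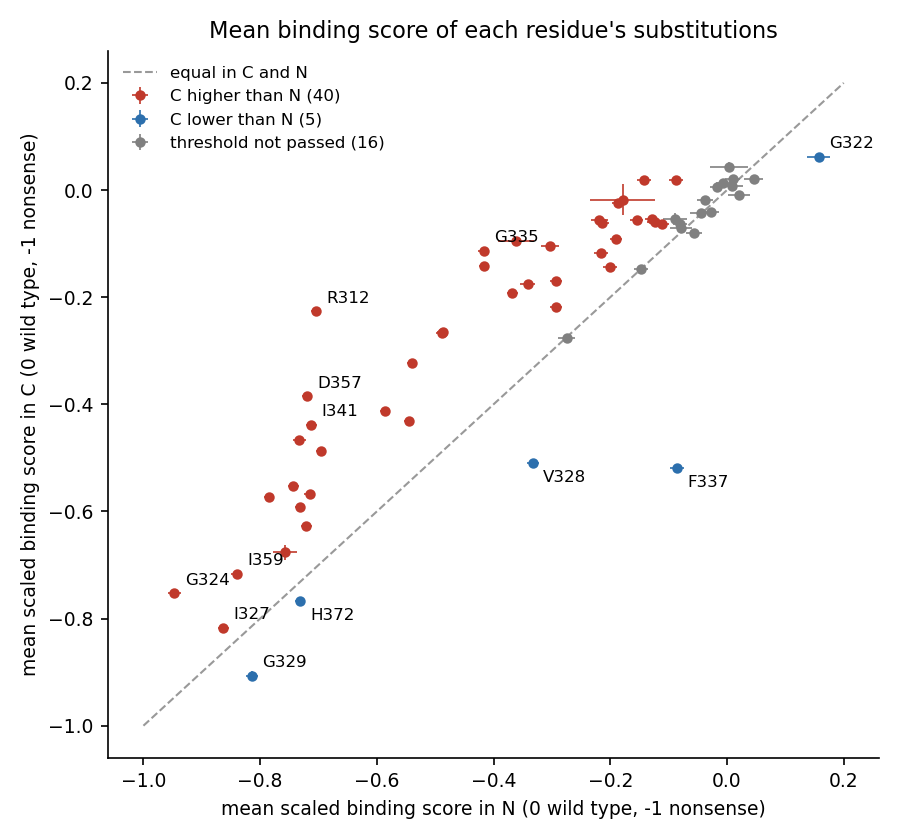
Mean scaled binding score of the substitutions of each of 61 residues in C (vertical axis) against N (horizontal axis), with the wild type at 0 and the nonsense median at -1. Bars are ± 1 standard error and the dashed line marks equal means; F337 and V328 lie far below it, and R312 and D357 lie far above it.

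Residues with at least 10 substitutions measured in both constructs numbered 61, with 13 to 19 substitutions each. G319, D332, G351, G356 and N363 had no single substitution in common and are not described. The mean was higher in C at 40 residues (65.6%), lower in C at 5 (8.20%), and did not pass the threshold at 16. The median difference over the 61 residues was 0.0985. The residues lower in C were F337, V328, G322, G329 and H372.

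All 12 residues of the hydrophobic core list, which pack inside the fold, had a higher mean in C, with a median difference of 0.191 against 0.0985 over all residues. This held on the scaled score, and I327 of this list was lower in C on the deposited growth rate (-0.0148). Their median score was -0.527 in C and -0.723 in N. I314 of strand 1 averaged -0.143 in C and -0.417 in N, a difference of 0.274 ± 0.00947. L360 averaged -0.0953 in C and -0.362 in N, a difference of 0.266 ± 0.0307. V362 averaged -0.467 in C and -0.733 in N, a difference of 0.266 ± 0.0127. I359, among the least tolerant residues of both constructs, had -0.716 in C and -0.840 in N. Of the single substitutions at these 12 residues, 138 of 228 were higher in C past the threshold and 11 lower, beside 45.9% and 9.21% of all singles.

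Of the 13 residues that contact the ligand, 8 were higher in C, a share close to the 65.6% over all residues. Another 3 (V328, G322 and H372) were lower, beside 8.20% lower over all residues, and 2 did not pass the threshold. The call at H372 depended on the scale. The median difference of the 13 residues was 0.0747, against 0.0985 over all residues. In the carboxylate-binding loop, whose backbone holds the partner's terminal carboxylate, R318 averaged -0.268 in C and -0.488 in N. L323 averaged -0.552 in C and -0.743 in N, G324 -0.753 in C and -0.947 in N, and F325 -0.591 in C and -0.731 in N. These residues were all higher in C, by 0.140 to 0.220. In helix 2, E373 averaged -0.175 in C and -0.342 in N, and A376 -0.432 in C and -0.544 in N.

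Strand 2, which pairs with the bound peptide, was the element with the smallest median difference (-5.34e-05 over 6 residues). It held 2 residues higher in C, I327 (-0.817 in C and -0.863 in N) and G330 (-0.628 in C and -0.721 in N). It also held 2 of the residues lower in C, V328 and G329. N326 (-0.147 in C and -0.148 in N) and E331 (-0.276 in C and -0.274 in N) did not pass the threshold, with differences of 0.00110 ± 0.0125 and -0.00121 ± 0.0159. Past the threshold, 29 single substitutions in the strand were higher and 32 lower in C, of 113, beside 45.9% and 9.21% of all singles. The small differences of I327, N326 and E331 changed sign with the scale, I327 to -0.0148 on the deposited growth rate.

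**Figure D2:**
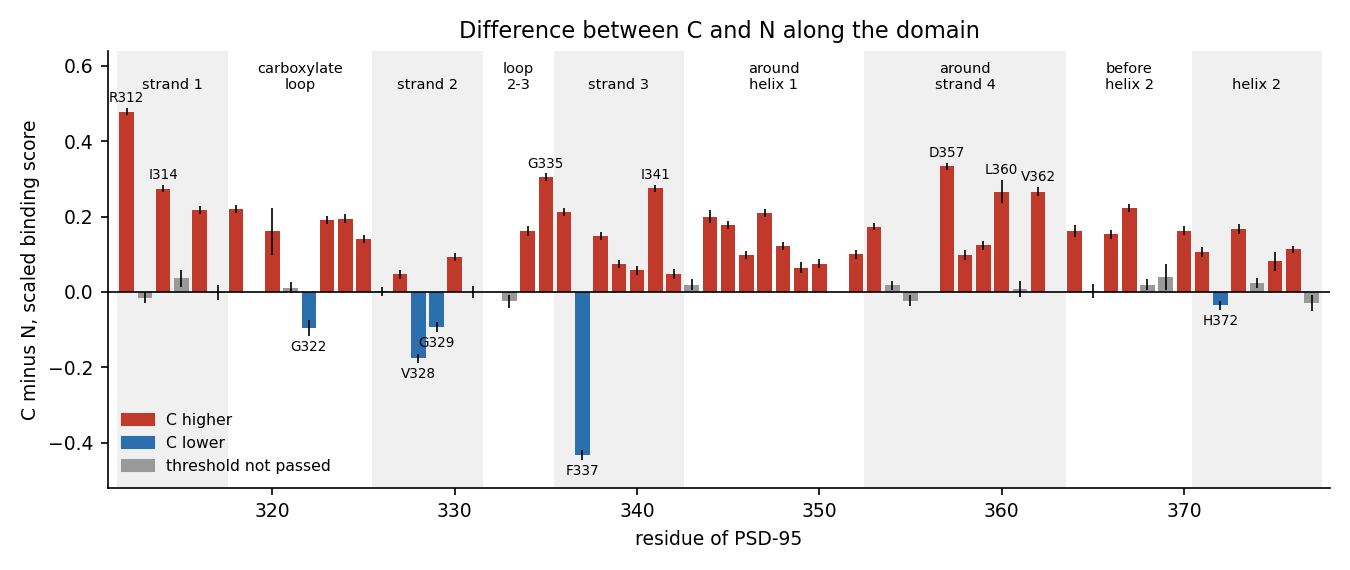
C minus N of the mean scaled binding score at each residue of the block, with bars for ± 1 standard error and shading for the structural elements. The largest value is at R312, the first residue, and the lowest at F337 in strand 3; gaps are residues with fewer than 10 substitutions in common.

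F337, in strand 3, showed the largest fall of any residue. Its 19 substitutions averaged -0.519 ± 0.00537 in C and -0.0860 ± 0.0124 in N, a difference of -0.433 ± 0.0135. It ranked 12th from the lowest of 61 residues in C and 47th in N. Every one of the 19 was lower in C, and 16 passed the threshold. In C the substitutions ran between -1.03 and -0.00915 with a median of -0.541, and in N between -1.01 and 0.123 with a median of -0.0104. Most F337 substitutions thus scored well below the wild type in C and close to it in N, although the ranges overlapped.

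The 3 substitutions of F337 that did not pass were those to tyrosine, tryptophan and proline. F337Y scored -0.00915 in C and 0.0215 in N, and F337W scored -0.0860 in C and -0.0761 in N. F337P was at the nonsense level in both constructs, with -1.03 in C and -1.01 in N. Methionine, leucine and histidine had smaller falls: F337M scored -0.122 in C and 0.0771 in N, F337L -0.260 in C and -0.0861 in N, and F337H -0.203 in C and 0.0597 in N. The acidic F337E had the largest single fall of all 1151 substitutions, with -0.877 ± 0.0147 in C and -0.0792 ± 0.0225 in N, a difference of -0.798 ± 0.0268.

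The 8 single substitutions with the largest falls in C by the 95% bound nearest 0 were all at F337: to E, N, T, S, K, A, G and R. F337N scored -0.736 in C and -0.00931 in N. F337K scored -0.599 in C and 0.00616 in N, and F337R scored -0.558 in C and 0.0194 in N. Serine and threonine stood above the wild type in N. F337S scored -0.496 ± 0.00754 in C and 0.123 ± 0.0195 in N, and F337T scored -0.527 ± 0.00949 in C and 0.0978 ± 0.0219 in N. The mean of F337 in the other constructs lay between these: -0.213 in PDZ3 and -0.277 in NC. It was the residue with the lowest difference under all 11 other settings that were tried.

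**Figure D3:**
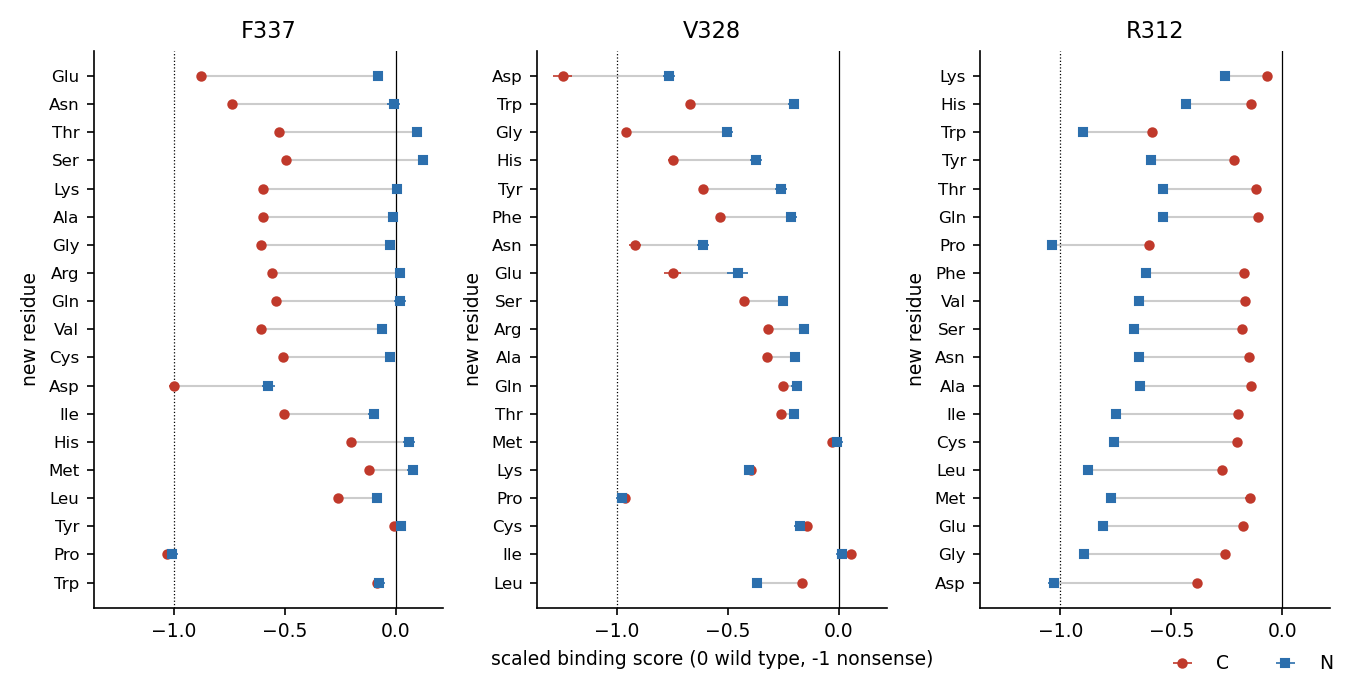
Scaled binding score of each substitution of F337, V328 and R312 in C (circles) and N (squares), with ± 1 standard error; the solid line marks the wild type and the dotted line the nonsense median. At F337 the C values lie well left of the N values except for tyrosine, tryptophan and proline, and at R312 all 19 C values lie to the right.

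V328, which lies on strand 2 and contacts the ligand, had a mean of -0.509 ± 0.00643 in C and -0.333 ± 0.0106 in N, a difference of -0.176 ± 0.0124. Of its 19 substitutions, 14 were lower in C, 12 of them past the threshold, and 1 was higher past the threshold. V328D scored -1.25 in C and -0.768 in N, V328G -0.960 in C and -0.504 in N, and V328W -0.673 in C and -0.204 in N. The conservative change V328I scored 0.0548 in C and 0.0126 in N and did not pass. V328L went the other way, with -0.167 in C and -0.370 in N. V328P was near the nonsense level in both, at -0.963 in C and -0.976 in N.

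The other 3 residues lower in C showed small differences. G329, next to V328, averaged -0.907 ± 0.00913 in C and -0.814 ± 0.00952 in N, the lowest mean of all residues in C. G329D scored -1.19 in C and -0.709 in N, whereas G329S scored -0.250 in C and -0.508 in N. G322, the first glycine of the carboxylate loop motif, tolerated substitution in both constructs and averaged 0.0620 ± 0.00614 in C and 0.157 ± 0.0202 in N (adjusted p = 1.01e-05). H372 is the histidine of helix 2 that hydrogen-bonds a serine or threonine of the partner. It averaged -0.767 ± 0.00777 in C and -0.732 ± 0.00909 in N (adjusted p = 0.00402), with 11 substitutions lower and 2 higher in C past the threshold.

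The calls at G329 and H372 depended on the scale, since both lie near the nonsense level: on the deposited score without scaling, C minus N was 0.202 at G329 and 0.235 at H372. H372 also lost its call when errors were widened. At H372 the asparagine variant H372N stood apart, with -0.742 in C and -1.39 in N, below the nonsense median of N. F337, V328 and G322 were lower in C under all 11 other settings.

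The largest rise was at R312, the first residue of the block, on strand 1. Its 19 substitutions averaged -0.226 ± 0.00365 in C and -0.704 ± 0.00857 in N, a difference of 0.479 ± 0.00931, and all 19 were higher in C past the threshold. In C they ran between -0.600 and -0.0681, and in N between -1.04 and -0.257, so the ranges overlapped while each substitution was higher in C than in N. The charge-conserving R312K had the least severe score in both, with -0.0681 in C and -0.257 in N. R312E, which reverses the charge, scored -0.177 ± 0.00515 in C and -0.807 ± 0.0154 in N. R312D scored -0.385 in C and -1.03 in N, and R312G -0.260 in C and -0.892 in N. The mean of R312 was -0.843 in PDZ3 and -0.111 in NC.

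Further residues rose in C by more than the core's median. D357 averaged -0.385 ± 0.00417 in C and -0.719 ± 0.00845 in N, a difference of 0.334 ± 0.00942, with all 19 substitutions higher, 16 of them past the threshold. Its polar substitutions had a median of -0.187 in C and -0.535 in N, while D357P was at the nonsense level in both (-0.997 in C and -1.03 in N). G335, in the loop between strands 2 and 3, averaged -0.113 in C and -0.417 in N, with 17 of 19 higher, 16 of them past the threshold. Only G335P was lower there past the threshold, with 0.0524 in C and 0.197 in N. I341 of strand 3 averaged -0.438 in C and -0.713 in N, and L367 averaged -0.265 in C and -0.487 in N.

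Strand 3 thus held both directions. Of its 7 residues 6 were higher in C and only F337 was lower. The neighbours of F337 were I336 (-0.574 in C and -0.785 in N) and I338 (-0.567 in C and -0.715 in N), which belong to the hydrophobic core. Around helix 1, 8 of 9 residues were higher in C and none was lower, beside 65.6% higher and 8.20% lower over all residues. Of the 171 single substitutions there, 102 were higher in C past the threshold and 1 was lower, beside 45.9% and 9.21% of all singles. A347, on helix 1, averaged -0.488 in C and -0.696 in N. Of the 13 charged residues 8 were higher in C and none was lower, and of the 9 glycines 6 were higher and 2 lower. The shares of higher residues were close to the 65.6% over all residues, of which 8.20% were lower. The 2 glycines lower in C were G322 and G329, and the call at G329 depended on the scale.

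The single substitutions with the largest rises by the 95% bound nearest 0 were mostly in the core. I338M scored -0.240 ± 0.00638 in C and -1.19 ± 0.0311 in N, a difference of 0.951 ± 0.0318. I336M scored -0.237 in C and -1.12 in N, and I359A scored -0.268 in C and -0.971 in N. L360D had -0.211 in C and -1.03 in N, and L360G had -0.260 in C and -1.06 in N. V362Y had -0.141 in C and -0.864 in N. R318W scored -0.570 ± 0.0427 in C and -1.35 ± 0.0709 in N. The N scores of I338M, I336M and R318W lay below the median nonsense variant. Only 3 single substitutions, G364V, V362Y and R312E, scored above -0.2 in C and below -0.8 in N, and only F337E showed the opposite.

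Double substitutions also scored higher in C on average. Their mean was -0.583 ± 0.00538 in C and -0.777 ± 0.00854 in N, a difference of 0.194 ± 0.0101 that passed the test. It was 0.506 in units of the deposited score without scaling, and 0.144 on the scaled score without variants of an error over 0.15. A score below -0.5 was found in 56.8% of doubles in C and 73.8% in N. One by one, 8359 doubles were higher in C past the threshold (21.0%) and 921 lower (2.31%). When errors were widened by the nonsense spread, these counts were 414 and 77, and on the deposited score without scaling they were 15146 and 533. Doubles share substitutions, so they are not independent of each other.

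Doubles that included F337 went against the rest. The 1226 of them averaged -0.670 ± 0.00681 in C and -0.365 ± 0.0104 in N, a difference of -0.305 ± 0.0124. Of these, 554 were lower in C past the threshold (45.2%) and 28 higher. Among the 38627 doubles without F337, 367 were lower in C past the threshold (0.950%) and 8331 higher (21.6%). Doubles with V328 were lower in C past the threshold in 181 of 908 cases and higher in 27. Most of these lower calls also held F337: V328/F337 had 132 lower and 2 higher of 297 doubles. V328/G329 had 36 lower and 17 higher of 356, and V328/S339 had 13 lower and 8 higher of 255. By contrast, doubles with L360 were higher in C past the threshold in 53.8% of 639 cases and lower in 2 of them. Their means were -0.256 in C and -0.702 in N.

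A double that stayed near the wild type in one construct and was lost in the other occurred in both directions. With limits chosen after seeing the data, scores above -0.2 in C and below -0.8 in N were found for 770 doubles, 572 of them past the threshold. L360 took part in 97 of the 572 (639 doubles measured), Q358 in 88 (1444 measured) and R368 in 66 (1241 measured), beside 572 of all 39853 doubles. These counts overlap, since every double with L360 held Q358 or R368 as its other residue. Scores below -0.8 in C and above -0.2 in N were found for 93 doubles, 70 of them past the threshold, and 63 of these 70 held a substitution of F337.

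Ranked by the 95% bound nearest 0, which favours precise values, the double variants with the largest rises were Q358L/L360S, Q358A/L360F, L353A/R354S, Q358K/L360A, L360A/R368V and S371V/Q374P. Q358L/L360S scored -0.130 ± 0.0149 in C and -1.06 ± 0.0687 in N. L353A/R354S scored -0.157 ± 0.0190 in C and -1.04 ± 0.0546 in N. The sum of its single effects was 0.0362 in C and -0.110 in N, and the pair departed from it by -0.194 in C and by -0.929 in N. Q358K/L360A, with -0.0581 in C and a difference of 1.14 ± 0.190, no longer passed when errors were multiplied by 2.

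Among the 6 double variants with the largest falls by the same bound, 5 included F337. By the difference alone, without regard to its error, the lowest value of any double was -1.31, in a double without F337, and the highest was 1.34. G335V/F337S scored -0.876 ± 0.0392 in C and 0.116 ± 0.0388 in N, a difference of -0.993 ± 0.0552. G335V/F337K scored -0.686 in C and 0.247 in N, and G335L/F337S scored -0.860 in C and -0.00958 in N. F337T/Q358L scored -0.865 in C and 0.211 in N. G335Y/F337S scored -1.24 ± 0.182 in C and -0.0181 ± 0.0701 in N, and lost its call when errors were widened. The exception, V365T/L367G, scored -1.05 ± 0.0593 in C and -0.0910 ± 0.0582 in N.

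Summed by pair of residues, the doubles covered 140 pairs with 7 to 360 variants each. The mean was higher in C past the threshold for 131 pairs (93.6%) and lower for 5 (3.57%). All 4 pairs that contained F337 were lower in C, and the fifth was V328/G329. G335/F337 averaged -0.716 ± 0.00890 in C and -0.337 ± 0.0119 in N. V328/F337 averaged -0.802 in C and -0.487 in N, F337/Q358 -0.691 in C and -0.382 in N, and E334/F337 -0.480 in C and -0.267 in N. V328/G329 averaged -0.938 in C and -0.906 in N, with a difference of -0.0322 ± 0.0151 (adjusted p = 0.0344).

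Of the partners of F337 in these pairs, V328 alone was lower in C as a single residue, and the others were higher. Q358 averaged -0.118 in C and -0.217 in N, and E334 0.0191 in C and -0.142 in N. The largest rises were Q358/L360, with -0.320 ± 0.00529 in C and -0.791 ± 0.0132 in N (349 doubles), and R312/I314, with -0.468 ± 0.00769 in C and -0.924 ± 0.0230 in N (257 doubles). In Q358/L360, 63.0% of the doubles were higher in C past the threshold one by one.

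**Figure D4:**
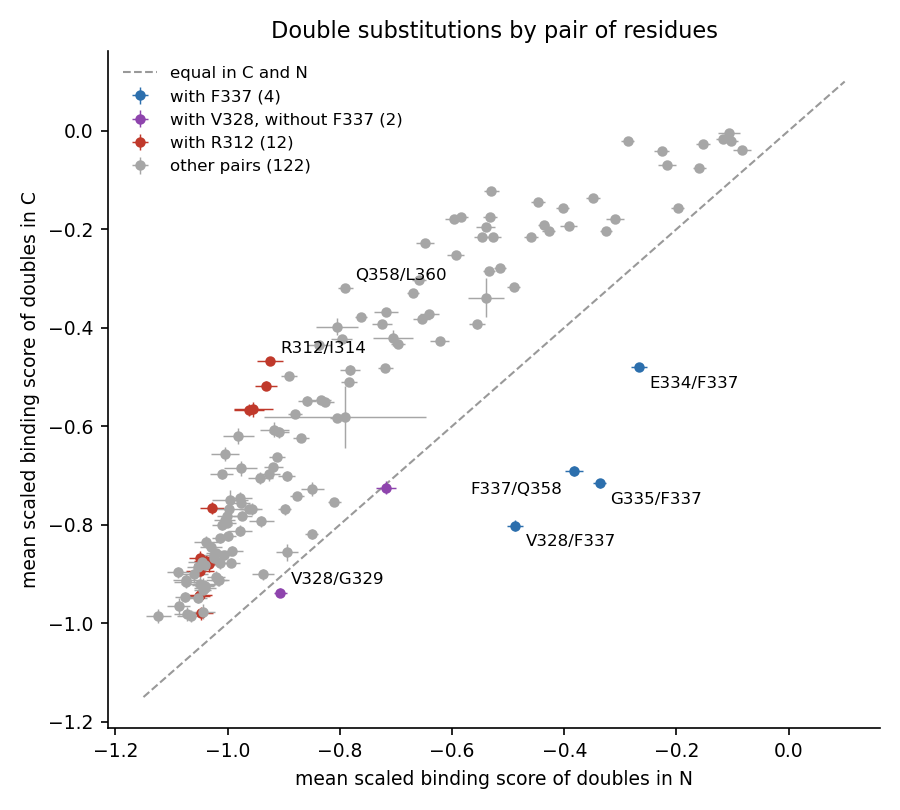
Mean scaled binding score of the doubles of each of 140 pairs of residues in C (vertical axis) against N (horizontal axis), with ± 1 standard error and a dashed line for equal means. The 4 pairs with F337 lie well below the line, V328/G329 lies just below it, and the 12 pairs with R312 lie above it.

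Doubles were also set against the sum of their single effects on the scaled score, for the 39764 doubles with both singles in both constructs. Past the threshold, 8598 departed upwards in C (21.6%) and 7427 downwards (18.7%), and in N, 8105 departed upwards (20.4%) and 3434 downwards (8.64%). The errors of doubles were smaller in C, so these counts do not compare the sizes of the departures. For sums above -0.5 and up to -0.2 within a construct, the median departure was -0.0824 in C and -0.147 in N. In that range 39.5% passed downwards in C and 24.9% in N. The departure of C minus N passed the threshold upwards in 1731 (4.35%) and downwards in 3744 (9.42%). Sums can lie past the nonsense level, where the measured scores level off. A sum of -1.2 or less was found for 6523 doubles in C and 13003 in N, and the median score of these doubles was -0.989 in C and -1.08 in N. Their median departure was 0.581 in C and 0.582 in N.

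Where the sums were above -0.8 in both constructs (17083 doubles, a limit chosen after seeing the data), doubles fell below their sums in both and further in N. The median departure there was -0.0277 in C and -0.122 in N, and the median of C minus N was 0.0821. Of the 17083, the departure of C minus N passed the threshold upwards in 1362 doubles and downwards in 414. Over all sums, the 2969 doubles with R312 had a median departure of -0.0409 in C and 0.369 in N. Their mean score was -0.788 in C and -1.01 in N, so in N they lay on average at the nonsense level, where sums below it give departures above 0. Also over all sums, the 346 G335/F337 doubles had a median departure of -0.0988 in C and 0.123 in N. Past the threshold, 47 of them exceeded their sum in C and 128 fell below it, against 118 and 15 in N. The departure was lower in C than in N past the threshold in 130 and higher in 6. In G335V/F337S the sum was -0.730 in C and -0.726 in N, and the double departed from it by -0.146 in C and by 0.842 in N.

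Abundance was measured on the same substitutions, which allowed the difference between constructs in binding to be set beside that in abundance. In abundance the mean of a residue was higher in C past the threshold at 41 of 60 residues (68.3%) and lower at 6 (10.0%). Across the 60 residues the differences in binding and abundance had a Pearson's r of 0.740 and a Spearman's rho of 0.759. As signed values, the difference in binding lay above that in abundance past the threshold at 23 residues (38.3%) and below it at 13 (21.7%). On the deposited score without scaling, these counts were 43 and 4. Both assays use their own nonsense level as -1, and whether equal steps of the scales stand for equal changes of binding and abundance was not tested.

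On the scaled score, V328 and H372 were separated by the assays. In abundance V328 averaged -0.0788 in C and -0.0794 in N, a difference of 0.000609 ± 0.00835, while its difference in binding was -0.176. H372 averaged -0.00118 in C and 0.000626 in N in abundance, where its difference did not pass the threshold. Its difference in binding was -0.0356, but 0.235 on the deposited score without scaling, so the direction at H372 depended on the scale. F337 was lower in C in abundance too, with -0.330 ± 0.00624 in C and -0.145 ± 0.00642 in N, but its difference there of -0.184 ± 0.00895 was a smaller fall than that in binding, by 0.249 ± 0.0162. G322 was higher in C in abundance (-0.113 in C and -0.188 in N) and lower in C in binding.

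R312 and D357 were higher in C in both assays, and more so in binding. R312 averaged -0.234 in C and -0.440 in N in abundance, a difference of 0.206 ± 0.0174 against 0.479 in binding. D357 averaged -0.503 in C and -0.633 in N in abundance, a difference of 0.129 ± 0.0253 against 0.334 in binding. I336 rose in C in binding, by 0.212, with a difference in abundance of 0.0135 ± 0.0138 that did not pass the threshold. The core residue I314 had almost equal differences in both assays, 0.275 ± 0.0204 in abundance and 0.274 ± 0.00947 in binding.

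**Figure D5:**
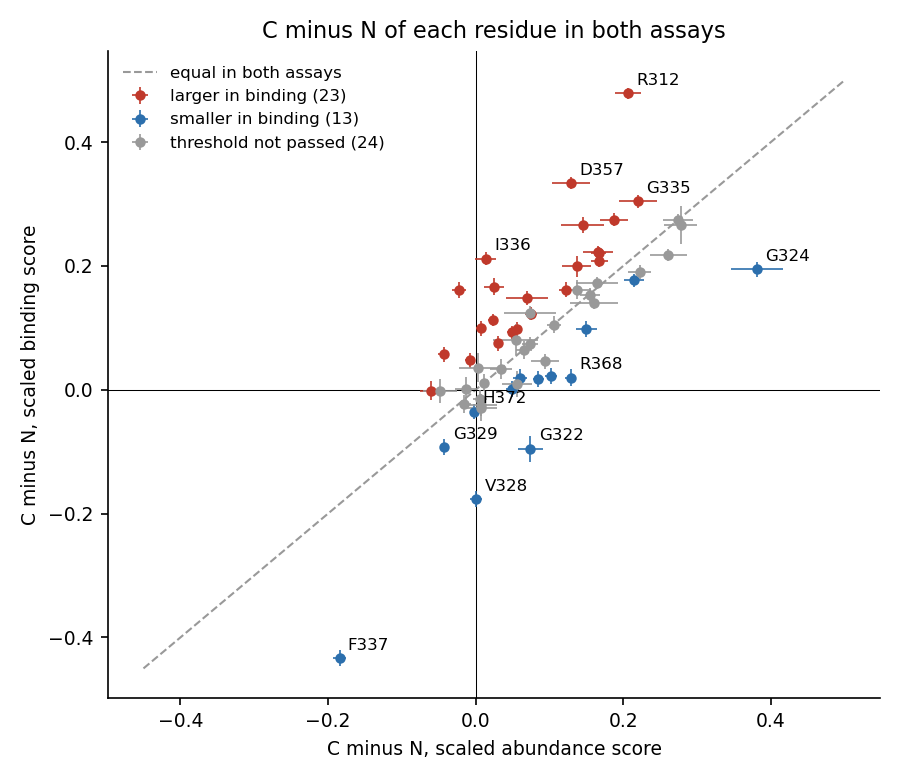
C minus N of the mean scaled score of each of 60 residues in binding (vertical axis) against abundance (horizontal axis), with ± 1 standard error and a dashed line where both are equal. V328 lies on the zero of the abundance axis at -0.176 in binding, F337 is at the lower left, and R312 stands highest.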

How the data were processed

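The authors' deposited table gives a score per variant, which they call fitness, with a standard error and the corresponding growth rate, merged over cultures. Of tools, cutadapt and FastQC are named in the submitters' processing notes, with no version. The scaled score and its tests were computed here with Python 3.11.15, numpy 2.4.6, pandas 2.3.3, scipy 1.17.1 and statsmodels 0.14.6. Variants were matched by sequence after removal of the last 2 letters, which mark the construct, and 8 placeholder entries with an error of 50 or more were left out. No error of a variant was below that of its wild type, so the wild-type part was taken out of each error, averaged over variants independently and added back once, with the error of the nonsense level. Residues needed at least 10 substitutions. The preferred test, limma on per-culture scores, could not be used because the table holds merged values, and a two-sided normal test over the deposited errors took its place. P-values were adjusted with Benjamini-Hochberg over all single and double variants together, over 61 residues, 140 pairs, 39764 doubles (additivity) or 60 residues (assays). The script was tested on simulated data. Named residues were the 10 with the largest rise and the 10 with the largest fall past the threshold (only 5 fell) and the 13 ligand contacts. Named variants were the 8 singles and 6 doubles of each direction by the 95% bound nearest 0. Other variants, pairs and residues were named after their values were seen. The members, lists and tests were chosen with earlier results of these data known. Alternatives covered the scale, the zero, the errors, the filter on error, the summary of a residue and the adjustment.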

Additional observations from a re-analysis of the deposited data

Results flagged for a closer look

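Of the 15 residues named for the size of their difference, 12 had a C minus N in binding that differed from C minus N in abundance by a test of that difference itself. Over all 60 residues this test was passed upwards by 38.3% and downwards by 21.7%. As a signed value, binding minus abundance was -0.249 at F337, -0.177 at V328, -0.169 at G322, -0.0503 at G329 and -0.0338 at H372, so that C fell further below N in binding than in abundance there, or fell below it in binding alone. It was 0.0537 at R318, 0.0564 at L367, 0.0842 at G335, 0.0875 at I341, 0.121 at V362, 0.204 at D357 and 0.272 at R312, where C stood further above N in binding. F337 was lower in C in both assays, and G322 was lower in C in binding and higher in C in abundance. The falls in binding at G329 and H372 depended on the scale. On the deposited score without scaling, C minus N in binding was 0.202 at G329 and 0.235 at H372.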

How the results depend on the processing

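No paired analysis was possible because the deposited table holds 1 value per variant merged over the cultures; leaving out single cultures could not be run for the same reason. Of the counts and shares of calls, 31 values under the alternatives moved by over 1.5 times. The means over all singles and over all doubles kept their direction and their call under every alternative run, but not their size, since the units differ. The mean over all singles was 0.237 on the deposited score without scaling, 0.00922 on the growth rate, and 0.0902 to 0.0985 under the others. That over all doubles was 0.506, 0.0153, and 0.144 to 0.194. F337 was the lowest and R312 the highest residue under all 11 settings. On the deposited score without scaling, 3 residues were lower in C, 15146 doubles were higher and 533 lower, and the residues that reversed were G329 at 0.202, H372 at 0.235 and E331 at 0.101. There the difference in binding lay above that in abundance at 43 residues and below it at 4. On the growth rate, 8 residues, 196 singles and 1514 doubles were lower, and N326 (-0.00381) and I327 (-0.0148) reversed. N326 also reversed to -0.00193 with the scale from the lowest 5% of missense and to -0.00599 when centred on synonymous variants, and E331 to 0.00739 with the median over substitutions. With errors multiplied by 2, 44 singles were lower, 1018 doubles higher and 183 lower. The departure of C minus N from additivity then passed upwards in 0.101% of doubles and downwards in 0.656%, with 10.6% and 6.63% in C and 5.21% and 0.787% in N. When errors were widened by the nonsense spread, 296 singles were higher and 31 lower, and 414 doubles higher and 77 lower. The shares for the departure were then 0.0101% and 0.156%, with 5.09% and 2.12% in C and 3.72% and 0.420% in N. Without wild-type and scale errors, 8 residues were lower. Without variants of an error over 0.15, where fewer doubles were tested, 4588 doubles were higher, and the departure passed upwards in 11.1% for C minus N and downwards in 17.7% in N. The cause of the other changes was not tested.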
